A study of Mus musculus with 12 samples.

Results

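The Zfp genes described here are mouse zinc finger genes named Zfp and a number, measured by RNA-seq in OT-I CD8 T cells, in which a transgene supplies 1 receptor specific for ovalbumin. A gene was included if the deposited table listed it as protein coding, if its name had that form, and if its mean reached 5 CPM (counts scaled to a library total of 1000000) in at least 1 of the 4 groups. Of 368 protein-coding genes with such a name, 238 met this limit, out of 55335 genes in the table. The members were chosen by these measured levels, so the levels are given as a description, as are changes between the groups that set them. The 4 groups were Batf3 stimulated, Batf3 non-stimulated, control stimulated and control non-stimulated, with 3 libraries each, 12 in all. The CD8 T cells came from the spleens of OT-I mice on a C57BL/6 background, were transduced with a retroviral vector that carried Batf3 or was empty (control), and were sorted by flow cytometry. Stimulated cells spent 6 h on plates coated with anti-CD3e and anti-CD28, both at 1 µg/ml, and non-stimulated cells were kept for 6 h in IL-15 at 100 ng/ml. All groups share the transgenic receptor, the retroviral transduction and the sort, the age of the mice is not given in the sources used here, and the labels name IL-15 for the non-stimulated cultures alone, so the antibodies and the absence of IL-15 cannot be told apart. The labels call the replicates technical, so every SD, SE and p-value below measures technical spread and not the spread between mice or transductions.

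Most mouse zinc finger proteins of the C2H2 type, in which cysteine and histidine pairs hold a zinc ion, bind DNA through a row of fingers. Many also carry a KRAB domain, which recruits the corepressor TRIM28 and through it the histone methyltransferase SETDB1, and these KRAB proteins are best known for silencing transposable elements and for guarding imprinted loci. KRAB zinc finger genes arose by repeated duplication and often lie side by side, so that neighbouring copies can be nearly identical in sequence. The name Zfp is given by fold and not by function, and it also covers RNA-binding proteins such as ZFP36, ubiquitin ligases and ribosome assembly factors.

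In the proteins of the 238 genes, translated from the GENCODE M21 annotation (GRCm38), 232 had at least 1 match to the C2H2 finger pattern, with a median of 11 fingers and a maximum of 37 in Zfp142. A KRAB domain was found in 135 and a SCAN domain, which pairs zinc finger proteins with each other, in 11, of which 7 had both. The 6 proteins without a C2H2 match were those of Zfp36, Zfp330, Zfp365, Zfp703, Zfp781 and Zfp839. Chromosome 7 held 57 of the genes, chromosome 17 held 30 and chromosome 13 held 18.

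Total counts were 14211564 to 14468231 per library, and reads of the 238 genes made up 0.562 to 0.634% of them. The summed level of 5 CD8 T cell markers (Cd8a, Cd8b1, Cd3e, Cd3g and Trac) was 1130 to 1880 CPM, Cd4 stayed at or below 0.632 CPM and the 2 platelet markers were at 0. The 3 erythroid markers summed to at most 2.18 CPM. The 5 B cell markers summed to 1.12 to 1.76 CPM in Batf3 stimulated and 4.57 to 6.88 CPM in Batf3 non-stimulated cells, and to 0.628 to 1.33 CPM in control stimulated and 3.25 to 4.78 CPM in control non-stimulated cells. The 4 NK markers summed to 36.8 to 39.4 CPM in Batf3 stimulated, 166 to 170 in Batf3 non-stimulated, 41.3 to 43.3 in control stimulated and 340 to 352 in control non-stimulated cells, nearly all of it Eomes, which CD8 T cells make themselves. The 5 myeloid markers summed to 8.5 to 11.1 CPM in Batf3 stimulated, 5.68 to 6.19 in Batf3 non-stimulated, 4.46 to 6.72 in control stimulated and 2.35 to 2.56 in control non-stimulated cells. The 5 dendritic cell markers summed to 56.6 to 60.8 CPM in Batf3 stimulated, 35.2 to 37.4 in Batf3 non-stimulated, 32.8 to 37.7 in control stimulated and 25.7 to 27.2 in control non-stimulated cells. Both of these sums were higher with Batf3 in each culture, with no overlap between the vectors. On the TMM-scaled levels, the dendritic list held Itgax, an integrin that activated T cells also make, at 43.7 ± 1.13 CPM in Batf3 stimulated, 15.7 ± 0.463 in Batf3 non-stimulated, 17.6 ± 0.886 in control stimulated and 8.31 ± 0.339 in control non-stimulated cells (SD, n = 3 each). The members of that list did not move together. Xcr1 had means of 7.11, 11.1, 4.39 and 9.13 CPM in the same order of groups, higher with Batf3 in each culture. Zbtb46, at 11.1, 5.89, 16.2 and 7.19 CPM, and Flt3, at 0.371, 0.555, 0.584 and 0.664 CPM, had lower means with Batf3 in each culture. By edgeR's quasi-likelihood test Zbtb46 passed in stimulated cells (adjusted p = 3.12e-05) and not in non-stimulated cells (adjusted p = 0.0743). Flt3 was too low to be tested, and its non-stimulated libraries overlapped between the vectors. The myeloid sum was led by the integrin Itgam, at 8.96 ± 1.39, 4.67 ± 0.155, 4.95 ± 1.26 and 1.90 ± 0.190 CPM in the same order of groups. Cd79b was at 0.469 ± 0.366, 4.48 ± 1.13, 0.483 ± 0.376 and 2.99 ± 0.818 CPM and Klrb1c at 0.864 ± 0.305, 0.789 ± 0.242, 0.736 ± 0.288 and 3.03 ± 0.782 CPM in that order. Of these lists Ms4a1, Ncr1, Lyz2 and Siglech were at 0 in all libraries. The part of these sums, given on library size alone, in the results was not tested. Batf3 itself, the gene in the vector, was at 392 to 522 CPM in the 6 Batf3 libraries and 6.09 to 17.6 CPM in the 6 control libraries. Library 3 of the Batf3 stimulated group stood apart for KRAB genes. Its KRAB members lay a median of 0.11 (log2) below the mean of the other 2 libraries of its group, against a difference of at most 0.06 in any other library, while its members without KRAB lay 0.01 below. Results that rest on that library are given with and without it.

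The levels below are CPM with library sizes scaled by TMM factors. The 238 genes had a median level of 15.1 CPM over all 12 libraries, between 3.28 and 264 CPM. The 135 with a KRAB domain had a median of 11.8 CPM, and the 103 without it 24.0 CPM. By CPM, the most abundant were Zfp207, Zfp106, Zfp445, Zfp384 and Zfp598, between 108.8 and 263.8 CPM. Zfp207 encodes BuGZ, a partner of the spindle checkpoint protein BUB3, and was at 273 ± 5.02 CPM in Batf3 stimulated, 244 ± 6.53 in Batf3 non-stimulated, 286 ± 6.51 in control stimulated and 252 ± 8.89 in control non-stimulated cells (SD, n = 3 each). Per kilobase of exon, the scale on which genes can be compared, the order over all libraries was Zfp207 at 39.6, Zfp869 at 37.5, Zfp598 at 27.9, Zfp36 at 27.0 and Zfp106 at 25.2 CPM per kilobase.

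The limit of 5 CPM itself favoured genes that were high in some group. Of the 238 genes, 180 reached it in all 4 groups, and 58 did not. Of those 58, 33 reached it in both non-stimulated groups and in no other, 7 in Batf3 non-stimulated cells alone, 4 in both stimulated groups alone, 2 in control stimulated cells alone and 1 in control non-stimulated cells alone. The genes just inside the limit were Zfp781 and Zfp846, whose highest group means were 5.22 and 5.61 CPM on library size alone, and those just outside were Zfp867 and Zfp763, at 4.97 and 4.90 CPM. A gene that entered through 1 group only had to differ between groups, so counts of changed genes are given beside the same count over all genes tested and are a description. In bulk RNA, fewer cells that make a transcript and less of it in each cell cannot be told apart.

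Stimulation moved most Zfp genes, in either direction. With the Batf3 vector 82 of the 238 rose and 116 fell at an adjusted p under 0.05 (edgeR's quasi-likelihood test, Benjamini-Hochberg adjustment over 15702 genes), where 41.2% and 41.4% of all genes tested rose and fell, 82.7% in all. Of the members, 83.2% were called. With the control vector 91 rose and 100 fell, where 39.6% and 40.7% of all genes tested did, 80.3% in all, and of the members 80.3% were called as well. At least 2-fold, 18 rose and 42 fell with Batf3, which is 7.56% and 17.6% of the members, where 18.8% and 24.4% of all genes tested did. With the control vector 16 rose and 47 fell, 6.72% and 19.7% of the members, where 17% and 24.1% of all genes tested did. Both shares were below those of all genes, and that of the rises was further below. The median log2 change was -0.18 with Batf3 and -0.11 with the control vector, against 0.01 and -0.01 over all genes tested. Among the 220 Zfp genes with a mean of 5 CPM over all 12 libraries, a limit that favours no group, 80 rose and 102 fell with Batf3 (median -0.10), and 88 rose and 89 fell with the control vector (median -0.05). In all, 82.7% and 80.5% of these 220 were called, against 90% and 88.6% of other protein-coding genes with that mean. Among the 180 that reached 5 CPM in each of the 4 groups rises outnumbered falls, with 77 rises and 70 falls with Batf3 (median 0.068) and 83 rises and 58 falls with the control vector (median 0.125). Other genes that met this limit in each group were not counted, so these numbers stand without a background share. Without TMM scaling 58 rose and 136 fell with Batf3, and 64 rose and 125 fell with the control vector, while the medians of all genes tested moved to -0.20 and -0.19.

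The calls with the 2 vectors overlapped. Of the genes that rose, 72 did so with both, which is 87.8% of the Batf3 list and 79.1% of the control list. Of those that fell 99 were shared, 85.3% of the Batf3 list and 99% of the control list, and no member was called in opposite directions. The overlap of calls over all genes tested, of which 82.7% were called with Batf3 and 80.3% with the control vector, was not computed. The shares above are thus a description and not a trait of the family. The log2 changes with both vectors had a Pearson correlation of 0.971 over the 238 genes and 0.954 over all genes tested, computed between comparisons that have no library in common.

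Zfp827 had the largest rise with either vector (ENSMUSG00000071064, chromosome 8, 79028437 to 79193766, plus strand, GRCm38). Its human counterpart, ZNF827, recruits the NuRD chromatin remodelling complex to telomeres. With the Batf3 vector it was at 108, 109 and 112 CPM in stimulated and 6.95, 5.06 and 6.15 CPM in non-stimulated libraries, a log2 change of 4.18 ± 0.10 (SE, adjusted p = 3.52e-52). The control libraries had 108, 110.4 and 107 CPM when stimulated and 8.24, 7.16 and 6.23 CPM when non-stimulated, a log2 change of 3.91 ± 0.09 (adjusted p = 4.72e-51). All 6 stimulated libraries lay far above all 6 non-stimulated ones, and the difference between the vectors did not pass the test in either culture.

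Zfp703, whose human counterpart ZNF703 is a corepressor amplified in luminal breast cancer, was at 51.9, 49.8 and 51.0 CPM in stimulated and 11.8, 9.68 and 10.5 CPM in non-stimulated libraries with Batf3 (2.25 ± 0.08, log2, SE). With the control vector it was at 45.7, 44.9 and 47.7 CPM in stimulated and 8.44, 9.68 and 6.49 CPM in non-stimulated libraries (2.49 ± 0.09), and exons of another gene on the other strand covered 13.5% of its exons. Zfp202, a protein with both SCAN and KRAB domains whose human counterpart represses genes of lipid metabolism, had log2 changes of 2.46 ± 0.14 with Batf3 and 2.30 ± 0.14 with the control vector, with 18.1 ± 1.05 CPM in control stimulated and 3.67 ± 0.382 CPM in control non-stimulated cells (SD, n = 3). These genes rose with both vectors, and their stimulated and non-stimulated libraries did not overlap. Zfp296, known for promoting the reprogramming of mouse fibroblasts to pluripotency, rose by 2.29 ± 0.11 with Batf3 and 1.69 ± 0.11 with the control vector, and Zfp566, a KRAB gene, by 1.64 ± 0.16 and 1.57 ± 0.17 in the same order. Zfp609, which with the related Zfp608 is known for controlling Rag gene expression in mouse thymocytes, rose by 1.70 ± 0.07 with Batf3 and 1.43 ± 0.07 with the control vector, where it was at 53.0 ± 0.855 CPM in stimulated and 19.7 ± 1.49 CPM in non-stimulated cells. These 6 genes were the 6 largest rises with either vector. Zfp202 and Zfp566 met the limit for members in the stimulated groups alone, so their rises are a description.

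Zfp106 had the largest step in CPM. It encodes an RNA-binding protein whose loss causes motor neuron degeneration in mice. With Batf3 it was at 369, 378 and 373 CPM in stimulated and 143, 145 and 146 CPM in non-stimulated libraries, a log2 change of 1.37 ± 0.04 (adjusted p = 2.21e-46). The control libraries had 377, 379 and 378 CPM when stimulated and 153, 156 and 153 CPM when non-stimulated (1.30 ± 0.04). The stimulated and non-stimulated libraries lay far apart, and an annotated gene on the other strand covered 26.1% of its exons.

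**Figure D1:**
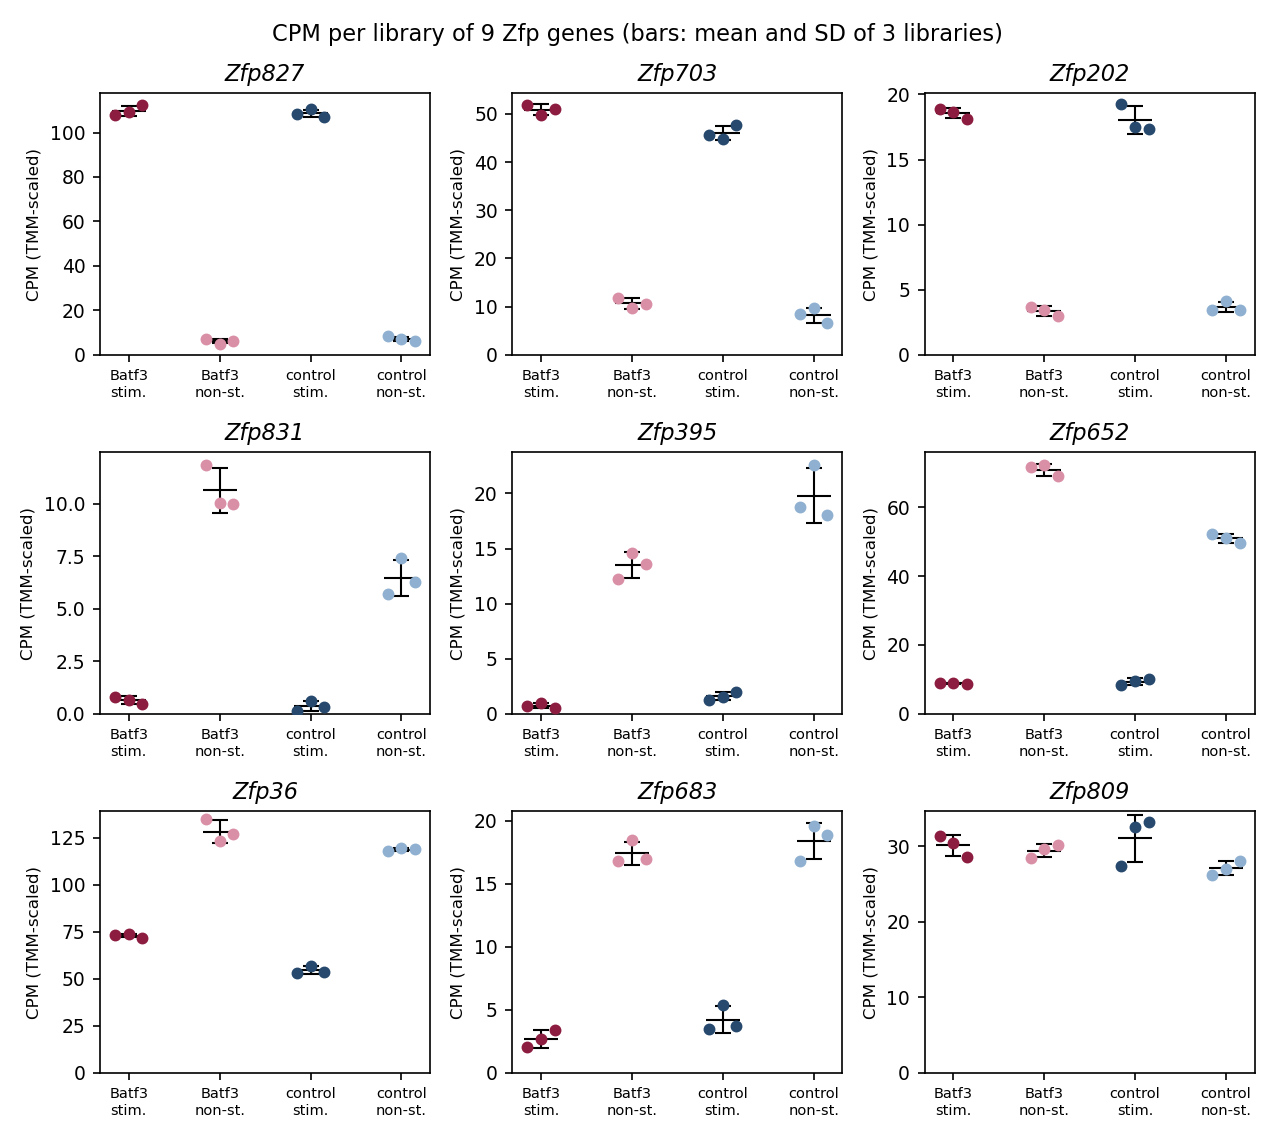
CPM (TMM-scaled, linear axis from 0) of 9 Zfp genes in each of the 12 libraries, with Batf3 stimulated, Batf3 non-stimulated, control stimulated and control non-stimulated cells from left to right. Points are libraries and bars the mean and SD of 3. Zfp827, Zfp703 and Zfp202 were high in stimulated cells, Zfp831, Zfp395, Zfp652, Zfp36 and Zfp683 in non-stimulated cells, and Zfp809 lay between 27.1 ± 0.929 and 31.0 ± 3.15 CPM in all groups.

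The falls reached as far as the rises. Zfp831 (ENSMUSG00000050600, chromosome 2, 174643534 to 174710832, plus strand) was at 0.818, 0.668 and 0.443 CPM in stimulated and 11.9, 10.1 and 9.999 CPM in non-stimulated libraries with Batf3, a log2 change of -4.03 ± 0.31 (adjusted p = 4.48e-25). The control libraries had 0.152, 0.610 and 0.305 CPM when stimulated and 5.71, 7.43 and 6.29 CPM when non-stimulated (-4.15 ± 0.42). In 1 control stimulated library this was below the 0.228 CPM that 3 counts stood for there, so the size of that fall rests on a few reads. Zfp395, whose human counterpart binds papillomavirus and huntingtin promoters, was at 0.669, 0.964 and 0.516 CPM in stimulated and 12.2, 14.6 and 13.6 CPM in non-stimulated libraries with Batf3 (-4.22 ± 0.29, adjusted p = 1.17e-28). With the control vector it was at 1.29, 1.52 and 1.98 CPM in stimulated and 18.8, 22.6 and 18.0 CPM in non-stimulated libraries (-3.62 ± 0.20). In both genes no stimulated library reached a non-stimulated one. Both met the limit for members in the non-stimulated groups alone. The limit favours that direction, so these falls and their p-values are a description.

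Zfp652, a repressor that in human cells partners with the corepressor CBFA2T3, was at 8.93, 8.90 and 8.78 CPM in stimulated and 71.6, 72.3 and 69.0 CPM in non-stimulated libraries with Batf3, a log2 change of -2.999 ± 0.09. With the control vector it was at 8.22, 9.45 and 10.2 CPM in stimulated and 52.3, 51.2 and 49.7 CPM in non-stimulated libraries (-2.46 ± 0.09). Its exons overlapped Abi3 or Phospho1 on the same strand over 11.8% and an antisense gene over 19.3% of their length, so reads of these genes may be mixed. Of Zfp566, 17.9% overlapped another gene on the same strand, and of Zfp296, 12.9% did on the other strand. The KRAB gene Zfp949 was at 1.80 ± 0.445 CPM in stimulated and 12.3 ± 2.40 CPM in non-stimulated Batf3 cells (SD, n = 3), a log2 change of -2.76 ± 0.21. Zfp710, with 11 fingers and no KRAB domain, changed by -2.68 ± 0.16 with Batf3 and -2.76 ± 0.14 with the control vector.

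Zfp260, known in the mouse heart as a partner of GATA4, was at 5.31 ± 0.417 CPM in control stimulated and 40.04 ± 2.98 CPM in control non-stimulated cells (SD, n = 3), with log2 changes of -2.53 ± 0.10 with Batf3 and -2.91 ± 0.11 with the control vector. The SCAN and KRAB gene Zfp287 changed by -2.32 ± 0.12 with Batf3 and -2.73 ± 0.14 with the control vector, and Zfp41, with 4 fingers, by -2.45 ± 0.20 and -2.65 ± 0.24 in the same order. Among the 6 largest falls of each comparison, Zfp395, Zfp831 and Zfp710 stood in both, Zfp652, Zfp949 and Zfp683 in that with Batf3, and Zfp260, Zfp287 and Zfp41 in that with the control vector. All of these but Zfp652 and Zfp260 met the limit for members in the non-stimulated groups alone, so their falls are a description.

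**Figure D2:**
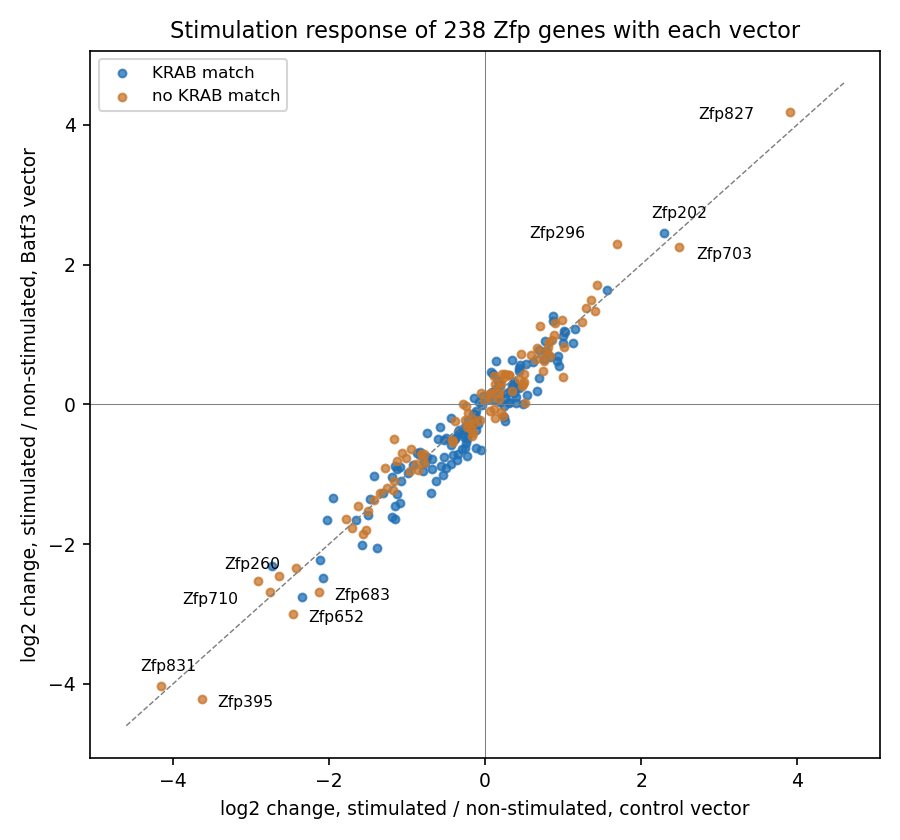
Log2 change with stimulation of the 238 Zfp genes, with the Batf3 vector on the vertical and the control vector on the horizontal axis; each point is a gene, coloured by whether its protein had a KRAB match, and the dashed line marks equal change. The genes lie along the line, from Zfp831 and Zfp395 at the low end to Zfp827 at the high end.

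Among the KRAB genes more fell than rose. Of the 135 members with a KRAB domain, 36 rose and 71 fell with the Batf3 vector (median -0.29), 26.7% and 52.6% of them, where 41.2% and 41.4% of all genes tested and 40.3% and 45.9% of the protein-coding ones did. With the control vector 45 rose and 60 fell (median -0.15), 33.3% and 44.4%, where 39.6% and 40.7% of all genes tested and 39% and 45.3% of the protein-coding ones did. The share that fell with the control vector was thus close to that of protein-coding genes. Of the KRAB members, 26 reached 5 CPM in no stimulated group, and of these 24 fell with Batf3 and 20 with the control vector, a direction the limit favours. Among the 98 KRAB members that reached it in each group, a set added after seeing the data, 32 rose and 42 fell with Batf3 (median -0.003), and 39 rose and 35 fell with the control vector (median 0.005). Of the 98 C2H2 members without KRAB, 44 rose and 43 fell with Batf3 (median 0.01), and 44 rose and 38 fell with the control vector (median 0.07). Among the 82 members without KRAB that reached the limit in each group, 45 rose and 28 fell with Batf3, and 44 rose and 23 fell with the control vector. The difference between these classes was not tested. Without library 3 of the Batf3 stimulated group, 39 KRAB members rose and 67 fell with Batf3, with a median of -0.22. Of 72 KRAB genes of other names that were tested, 12 rose and 25 fell with Batf3 (median -0.06), 16.7% and 34.7% of them. With the control vector 16 rose and 26 fell (median 0.01), 22.2% and 36.1%. Falls outnumbered rises in that list too, while its medians lay close to 0. The shares that fell were below those of all genes tested, and the shares that rose were further below.

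**Figure D3:**
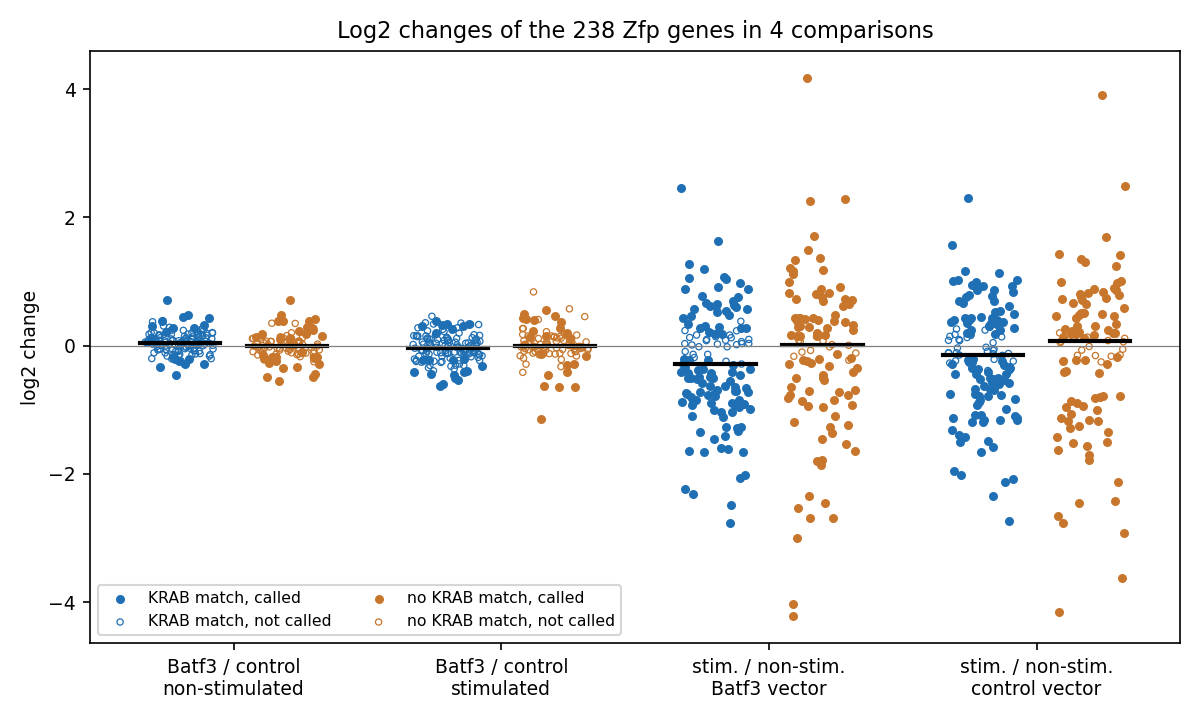
Log2 changes of the 238 Zfp genes in 4 comparisons (left to right, Batf3 over control in non-stimulated and in stimulated cells, stimulated over non-stimulated with the Batf3 and with the control vector), split by KRAB match. Each point is a gene, filled where its adjusted p was under 0.05, and the black bar is the class median. Changes with stimulation spread from below -4 to about 4, and changes with the vector stayed mostly within 0.7 of 0.

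The genes through which KRAB proteins act were followed as a list of 19 tested genes. With stimulation 10 rose and 8 fell with Batf3 (median 0.11), and 10 rose and 8 fell with the control vector (median 0.12), against the 41.2% and 41.4%, and 39.6% and 40.7%, of all genes tested given above. Trim28, the corepressor itself, was at 342 ± 6.66 CPM in control stimulated and 259.8 ± 4.46 CPM in control non-stimulated cells (SD, n = 3), with log2 changes of 0.57 ± 0.04 with Batf3 and 0.40 ± 0.04 with the control vector. Setdb1, the H3K9 methyltransferase it recruits, rose by 0.44 ± 0.05 with Batf3 and 0.34 ± 0.05 with the control vector. Dnmt1, the maintenance DNA methyltransferase, was at 118 ± 1.52 CPM in Batf3 stimulated, 293 ± 5.34 in Batf3 non-stimulated, 79.2 ± 4.27 in control stimulated and 299.7 ± 2.41 in control non-stimulated cells. It fell with stimulation, less so with Batf3 by the interaction test (0.60 ± 0.06, adjusted p = 2.37e-15). Atf7ip, a partner of SETDB1, fell with both vectors (-1.76 ± 0.05 with Batf3, -1.72 ± 0.06 with the control vector), and its level was higher with Batf3 in stimulated (0.35) and non-stimulated cells (0.40). Of 11 genes of the HUSH silencing complex and H3K9 enzymes, 4 rose and 7 fell with Batf3, and 4 rose and 5 fell with the control vector. Among them Morc2a rose by 1.15 ± 0.05 and Ehmt2, which encodes the methyltransferase G9a, changed by -2.23 ± 0.06 with the control vector. Both lists held genes that rose and genes that fell.

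The Batf3 vector moved Zfp genes far less than stimulation did. In non-stimulated cells 27 members were higher and 25 lower with Batf3, where 16.3% and 23% of all genes tested were, 39.3% in all. Of the members, 21.8% were called. Of other protein-coding genes with a mean of 5 CPM or more, 48.9% were called, and of the 220 Zfp genes with that mean 21.4%. No member was called at 2-fold or more, where 2.26% and 0.866% of all genes tested were higher and lower by that much. Of the other protein-coding genes with a mean of 5 CPM or more, 0.735% and 0.537% were. The levels of these genes were not matched to those of the members. The median log2 change was 0.03, against -0.02 over all genes tested. Without TMM scaling the split was 57 higher and 7 lower, and the medians of the members and of all genes tested moved to 0.11 and 0.05, with 3604 higher and 2397 lower over all genes. Members lower with Batf3 numbered 14 without any 1 control stimulated library, 13 without Batf3 non-stimulated library 1 and 15 without Batf3 stimulated library 1 or 2. Over all genes tested, lower calls numbered 3103 to 3280 in these fits, against 3615 with all libraries. Their median moved from -0.024 to 0.004 or 0.005, except without Batf3 non-stimulated library 1, where it stayed at -0.024.

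Zfp831, which fell with stimulation, had the largest increase with Batf3 in non-stimulated cells. It was at 11.9, 10.1 and 9.999 CPM with Batf3 and 5.71, 7.43 and 6.29 CPM with the control vector, a log2 change of 0.72 ± 0.14 (SE, adjusted p = 1.31e-05), and the groups did not overlap. Zfp652 was at 71.6, 72.3 and 69.0 CPM in Batf3 and 52.3, 51.2 and 49.7 CPM in control non-stimulated libraries (0.47 ± 0.06, adjusted p = 1.22e-11). The KRAB genes Zfp760, Zfp169, Zfp595 and Zfp658 were higher by 0.71 ± 0.15, 0.47 ± 0.09, 0.45 ± 0.14 and 0.44 ± 0.13, of which Zfp595 did not pass without control non-stimulated library 1 (adjusted p = 0.0775) and Zfp658 without Batf3 non-stimulated library 3 (adjusted p = 0.0665). Zfp169, the most abundant of these 4, was at 19.1 ± 0.876 CPM with Batf3 and 13.7 ± 1.20 CPM with the control vector (SD, n = 3). Zfp760 met the limit for members in Batf3 non-stimulated cells alone, so its difference is a description.

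In the other direction, Zfp395 was at 12.2, 14.6 and 13.6 CPM in Batf3 and 18.8, 22.6 and 18.0 CPM in control non-stimulated libraries (-0.56 ± 0.10, adjusted p = 3.74e-06). Zfp710 was at 18.2, 16.2 and 16.7 CPM with Batf3 and 25.8, 22.1 and 24.0 CPM with the control vector (-0.49 ± 0.09, adjusted p = 2.26e-06). Zfp395 and Zfp710 thus fell with stimulation and were also lower with Batf3, and in each the 3 Batf3 libraries lay below the 3 control libraries. Zfp455 and Zfp27, both KRAB genes, had log2 changes of -0.46 ± 0.16 and -0.34 ± 0.12, Zfp365 of -0.44 ± 0.10 and Zfp296 of -0.33 ± 0.13. With single libraries left out, Zfp455, Zfp27 and Zfp296 did not pass in 2, 2 and 10 of 12 fits, with an adjusted p of up to 0.131, 0.0919 and 0.111. Zfp455 met the limit for members in control non-stimulated cells alone, so its difference is a description. Zfp598, the ligase that marks collided ribosomes, was lower as well (-0.19 ± 0.05), at 72.4 ± 3.13 CPM with Batf3 and 82.7 ± 2.81 CPM with the control vector.

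In stimulated cells 21 members were higher and 24 lower with Batf3, where 14.8% and 14.6% of all genes tested were, 29.5% in all. Of the members 18.9% were called, and of other protein-coding genes with a mean of 5 CPM or more 37.7%. Of the 220 Zfp genes with that mean, 19.5% were called. At 2-fold or more 0 members were higher and 1, Zfp395, was lower, where 2.45% and 0.834% of all genes tested were. Of the other protein-coding genes with a mean of 5 CPM or more, 1.13% and 0.406% were. The median log2 change was -0.02, against 0.00 over all genes tested. Without TMM scaling 38 were higher and 16 lower, while over all genes tested the split moved to 2979 higher and 1561 lower, against 2331 and 2300 with it.

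Zfp36 encodes tristetraprolin, a CCCH zinc finger protein that binds AU-rich elements and starts the decay of cytokine mRNAs. In stimulated cells it was at 73.4, 73.6 and 71.8 CPM with Batf3 and 52.9, 56.9 and 53.7 CPM with the control vector, a log2 change of 0.42 ± 0.05 (adjusted p = 5.6e-11). In non-stimulated cells it was at 135, 123 and 127 CPM with Batf3 and 118, 119.7 and 119 CPM with the control vector (0.11 ± 0.04, adjusted p = 0.0183). The gene thus fell with stimulation, with log2 changes of -0.81 with Batf3 and -1.12 with the control vector, and its level was higher with Batf3 in both cultures. In non-stimulated cells the difference did not pass without Batf3 non-stimulated library 1 (0.07, adjusted p = 0.192) or control non-stimulated library 1 or 3. Of 7 other CCCH genes of mRNA control, 3 were higher with Batf3 in stimulated cells, where 14.8% of all genes tested were, and the other 4 did not pass the test. Zfp36l1, a close relative, was at 274 ± 4.96 CPM with Batf3 and 189 ± 6.64 CPM with the control vector in stimulated cells (SD, n = 3; 0.53 ± 0.04, log2, SE), and rose with stimulation by 0.93 ± 0.04 with the control vector. Zfp36l2 was at 105 ± 7.38 CPM with Batf3 and 90.01 ± 2.38 CPM with the control vector in stimulated cells (0.23 ± 0.05) and fell with stimulation, by -1.65 ± 0.04 with Batf3 and -2.01 ± 0.04 with the control vector (interaction 0.36 ± 0.06, adjusted p = 6.98e-08). In non-stimulated cells Zfp36l2 was lower with Batf3 (-0.14 ± 0.04, adjusted p = 0.000263). Stimulated cells thus had less Zfp36 and Zfp36l2 and more Zfp36l1 than non-stimulated cells.

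Among the other members that were higher with Batf3 in stimulated cells, Zfp608 was at 10.9, 10.8 and 8.85 CPM with Batf3 and 7.61, 6.40 and 6.78 CPM with the control vector (0.55 ± 0.12, adjusted p = 0.000254). Its relative Zfp609 was at 65.5, 69.3 and 75.4 CPM with Batf3 and 53.0, 52.1 and 53.8 CPM with the control vector (0.40 ± 0.06). Zfp608 fell and Zfp609 rose with stimulation, and with Batf3 both stood higher in stimulated cells. Zfp260, Zfp367 and Zfp597 were higher by 0.49 ± 0.14, 0.43 ± 0.10 and 0.39 ± 0.09, and Zfp597, a KRAB gene, had 27.1% of its exon length covered by genes on the other strand. Zfp217, a corepressor subunit and human breast cancer oncogene, was at 31.8 ± 1.58 CPM with Batf3 and 24.8 ± 1.33 CPM with the control vector (0.36 ± 0.07).

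Lower with Batf3 in stimulated cells were Zfp771, Zfp993, Zfp239, Zfp992, Zfp991 and Zfp987. Zfp771, with 8 fingers and no KRAB domain, was at 7.51, 6.60 and 9.22 CPM with Batf3 and 12.7, 12.9 and 10.7 CPM with the control vector (-0.64 ± 0.13, adjusted p = 5.34e-05). Zfp239 was at 4.52 ± 0.478 CPM with Batf3 and 6.98 ± 0.686 CPM with the control vector (-0.63 ± 0.17). Zfp239 and Zfp987 met the limit of 5 CPM in control stimulated cells alone. The limit favours that direction, so their differences are a description. The other 4 are neighbours on chromosome 4 and are described below with that region. The lowest log2 change belonged to Zfp395, at 0.717 ± 0.228 CPM with Batf3 and 1.60 ± 0.349 CPM with the control vector (-1.15 ± 0.34), which lies under 5 CPM in both groups.

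Zfp683 encodes Hobit, a transcription factor of tissue-resident T cells. In non-stimulated cells it was at 16.8, 18.5 and 16.9 CPM with Batf3 and 16.8, 19.6 and 18.8 CPM with the control vector, and the difference did not pass the test (-0.08 ± 0.09, adjusted p = 0.542). In stimulated cells it was at 2.01, 2.67 and 3.39 CPM with Batf3 and 3.50, 5.41 and 3.73 CPM with the control vector (-0.64 ± 0.20, adjusted p = 0.00749). The gene fell with stimulation with either vector, with log2 changes of -2.69 with Batf3 and -2.12 with the control vector, and the difference between these falls did not pass the test (adjusted p = 0.0533). Without library 3 of the Batf3 stimulated group it did pass (-0.77, adjusted p = 0.013). The lower level with Batf3 in stimulated cells did not pass without control stimulated library 2 (-0.43, adjusted p = 0.143) or Batf3 stimulated library 1.

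The interaction, the Batf3 effect in stimulated cells minus that in non-stimulated cells, was called for 12 members upward and 13 downward, where 14.6% and 6.08% of all genes tested were called, 20.7% in all. Of the members, 10.5% were called, none at 2-fold or more, where 0.828% and 0.726% of all genes tested were called upward and downward by that much. Of other protein-coding genes with a mean of 5 CPM or more, 28.9% were called, with 0.636% upward and 0.274% downward by 2-fold or more. Of the 220 Zfp genes with that mean, 11.4% were called. The 4 largest upward were Zfp608 at 0.67 ± 0.16, Zfp296 at 0.61 ± 0.15, Zfp263 at 0.41 ± 0.07 and Zfp266 at 0.39 ± 0.09. Zfp296 was at 26.1, 24.9 and 30.3 CPM in Batf3 stimulated, 5.29, 5.58 and 5.71 in Batf3 non-stimulated, 21.6, 22.2 and 23.3 in control stimulated and 7.31, 6.83 and 6.69 in control non-stimulated libraries. With Batf3 it was thus higher in stimulated cells (0.28) and lower in non-stimulated cells (-0.33, log2). The first difference did not pass without library 3 of the Batf3 stimulated group (0.18, adjusted p = 0.117), and the second failed in 10 of 12 fits that left out 1 library (adjusted p up to 0.111), while the interaction was 0.52 without that library 3 (adjusted p = 0.0085). Zfp263, a SCAN protein with 9 fingers, followed the same course at 95.5 ± 2.51 CPM in Batf3 stimulated, 44.1 ± 2.02 in Batf3 non-stimulated, 81.4 ± 2.86 in control stimulated and 49.9 ± 1.76 in control non-stimulated cells (SD, n = 3 each). Zfp266, a KRAB gene known for restraining the reprogramming of mouse fibroblasts to heart cells, rose with stimulation by 1.27 ± 0.06 with Batf3 and 0.87 ± 0.06 with the control vector.

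The 4 largest downward were Zfp771 at -0.61 ± 0.19, Zfp942 at -0.60 ± 0.14, Zfp652 at -0.54 ± 0.13 and Zfp992 at -0.48 ± 0.12. Zfp942, a KRAB gene of chromosome 17, was at 17.5, 19.5 and 12.8 CPM in Batf3 stimulated, 25.2, 29.4 and 23.8 in Batf3 non-stimulated, 22.9, 21.2 and 23.5 in control stimulated and 22.6, 23.8 and 23.6 in control non-stimulated libraries. It fell with stimulation with Batf3 (-0.66 ± 0.10), and with the control vector the change did not pass the test (-0.05 ± 0.10). Library 3 was the lowest of the Batf3 stimulated group, and without it the fall was -0.50 and the interaction -0.44 (adjusted p = 0.00302). Zfp652 had its higher non-stimulated level with Batf3, while its stimulated levels were 8.87 ± 0.0803 CPM with Batf3 and 9.29 ± 1.00 CPM with the control vector. With library 3 of the Batf3 stimulated group left out, 13 members were called upward and 11 downward, and of the KRAB members 4 upward and 4 downward, against 3 and 8 with it. Other libraries moved the counts further. Upward calls numbered 6, 7 and 6 without control stimulated library 1, 2 or 3, and downward calls 22 without control stimulated library 1, 25 without Batf3 stimulated library 1 and 8 without Batf3 non-stimulated library 2. All genes tested moved in these fits too. Their upward calls numbered 1664, 1565 and 1573, against 2296 with all libraries, and their median moved from 0.054 to 0.019, 0.02 and 0.019. Their downward calls numbered 1024, 1137 and 865, against 954. The interaction of Zfp771 did not pass without control non-stimulated library 2 (-0.47, adjusted p = 0.0919) or Batf3 stimulated library 2.

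Many of the genes lie together. Family genes at most 1000000 bases apart formed 14 neighbourhoods with at least 5 members each, which held 108 of the 238 genes. They were set by position, and the ones described below were picked after their values were seen. Neighbours often share sequence: for 42 members 10% or more, and for 16 members 50% or more, of the 50-base words of their transcripts also occurred on the same strand in transcripts of another gene. Counts of such genes cannot be told apart with certainty, since how the counting handled reads with several matches is not given in the sources used here. Leaving out these 42 left 69 rises and 99 falls with stimulation with Batf3, and 69 and 84 with the control vector.

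On chromosome 2, Zfp831 and 7 KRAB genes (Zfp965, Zfp966, Zfp967, Zfp968, Zfp969, Zfp971 and Zfp973) lie between 174643534 and 178078476. The KRAB genes share between 40% (Zfp971) and 100% (Zfp965, Zfp967, Zfp968 and Zfp969) of their 50-base words with other genes. The 100 bases before their start sites are shown for 6 of them, from RefSeq (GRCm38.p6), 5′ to 3′ in the direction of the gene, since they show how alike these copies are. Capitals mark CCAAT or its reverse complement, the binding motif of the factor NF-Y.
Zfp966, chr2:175931101-175931200 (minus strand): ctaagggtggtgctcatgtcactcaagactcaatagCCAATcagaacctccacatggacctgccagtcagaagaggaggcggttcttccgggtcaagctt
Zfp967, chr2:176520904-176521003 (plus strand): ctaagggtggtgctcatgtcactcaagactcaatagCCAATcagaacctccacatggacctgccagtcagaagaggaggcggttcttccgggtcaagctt
Zfp968, chr2:175372336-175372435 (plus strand): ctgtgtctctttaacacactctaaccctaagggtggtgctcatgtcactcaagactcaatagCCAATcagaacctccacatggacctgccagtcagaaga
Zfp973, chr2:176670422-176670521 (plus strand): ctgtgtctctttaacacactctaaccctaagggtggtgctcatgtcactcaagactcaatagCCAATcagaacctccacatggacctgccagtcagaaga
Zfp965, chr2:175469925-175470024 (plus strand): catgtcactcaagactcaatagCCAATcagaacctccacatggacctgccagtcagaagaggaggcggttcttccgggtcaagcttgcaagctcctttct
Zfp971, chr2:178023184-178023283 (plus strand): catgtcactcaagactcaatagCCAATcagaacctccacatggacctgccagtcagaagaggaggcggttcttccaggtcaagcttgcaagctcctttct
The stretches of Zfp966 and Zfp967 were 100% identical, as were those of Zfp968 and Zfp973, and those of Zfp965 and Zfp971 were 99% identical. The same CCAAT and its surroundings stand in all 6, in part shifted against the annotated start. CCAAT on either strand occurred in 50.8% of the 197 member promoters with a RefSeq entry and in 37.9% of 27025 promoters of all genes, each of 300 bases, and a match is no sign of binding. The promoters of all genes include those of genes not expressed here, and other expressed genes were not compared.

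Apart from Zfp971, these copies rose with stimulation with both vectors. Zfp968 was at 14.1, 11.5 and 10.9 CPM in stimulated and 6.38, 6.73 and 5.45 CPM in non-stimulated libraries with Batf3 (0.97 ± 0.12, log2, SE). The control libraries had 13.5, 12.3 and 13.02 CPM when stimulated and 6.38, 6.30 and 6.69 CPM when non-stimulated (1.00 ± 0.12), and with either vector the stimulated libraries lay above the others. The rises of the 6 copies lay between 0.55 (Zfp965) and 1.05 (Zfp969) with Batf3 and between 0.93 (Zfp973) and 1.13 (Zfp966) with the control vector, but with shared sequence these are not 6 separate observations. Zfp971, the copy that shares least, did not pass the test with either vector (-0.24 ± 0.17 with Batf3, 0.26 ± 0.18 with the control vector). Zfp831, which shares no 50-base word with another gene, fell.

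On chromosome 4, 6 KRAB genes (Zfp987, Zfp992, Zfp993, Zfp991, Zfp984 and Zfp933) lie between 146097298 and 147848366. The promoter stretches of Zfp987 and Zfp984, shown to set 2 less alike copies beside those of chromosome 2, were 63.5% identical.
Zfp987, chr4:146097212-146097311 (plus strand): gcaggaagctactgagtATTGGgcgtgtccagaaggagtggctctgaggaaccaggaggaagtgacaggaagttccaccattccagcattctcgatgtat
Zfp984, chr4:147809789-147809888 (minus strand): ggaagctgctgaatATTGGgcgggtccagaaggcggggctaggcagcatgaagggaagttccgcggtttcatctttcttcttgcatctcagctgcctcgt
With Batf3 the changes of these 6 genes with stimulation, 0.01 for Zfp992 to 0.38 for Zfp984, did not pass the test, while with the control vector all 6 rose, by 0.30 (Zfp933) to 0.70 (Zfp984), of which Zfp991 did not pass in 2 of 12 fits that left out 1 library (adjusted p up to 0.0622). Zfp992 was at 28.3, 24.0 and 19.9 CPM in Batf3 stimulated, 22.5, 26.7 and 22.4 in Batf3 non-stimulated, 38.1, 33.8 and 36.9 in control stimulated and 25.4, 24.9 and 27.1 in control non-stimulated libraries. The 3 control stimulated libraries stood above all others, and the Batf3 stimulated libraries overlapped the non-stimulated ones of either vector. Zfp993 had the same course, at 12.2 ± 1.46 CPM in Batf3 stimulated, 12.1 ± 1.98 in Batf3 non-stimulated, 18.9 ± 0.351 in control stimulated and 14.3 ± 1.04 in control non-stimulated cells (SD, n = 3 each).

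In stimulated cells 4 of these 6 genes were lower with Batf3, with log2 changes of -0.63 ± 0.10 for Zfp993, -0.59 ± 0.09 for Zfp992, -0.53 ± 0.14 for Zfp991 and -0.46 ± 0.17 for Zfp987. Zfp987 met the limit for members in control stimulated cells alone, so its difference is a description. The interaction passed for Zfp992 (adjusted p = 0.00307) and Zfp993 (adjusted p = 0.046) and not for the other 4. Library 3 of the Batf3 stimulated group was the lowest of its group for 5 of the 6 genes, at 30.2 CPM for Zfp984 against 48.7 and 46.7 in the other 2. Without it Zfp993, Zfp992 and Zfp991 stayed lower with Batf3 (-0.54, -0.48 and -0.38), Zfp987 no longer passed (-0.37, adjusted p = 0.128), Zfp984 and Zfp991 rose with stimulation in Batf3 cells as well (0.57 and 0.25), and only Zfp992 kept a called interaction (-0.36, adjusted p = 0.0102). All but Zfp933, which shared 1.1%, shared between 43% (Zfp992) and 92.1% (Zfp987) of their 50-base words with other genes, so a change in 1 copy can appear in several.

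**Figure D4:**
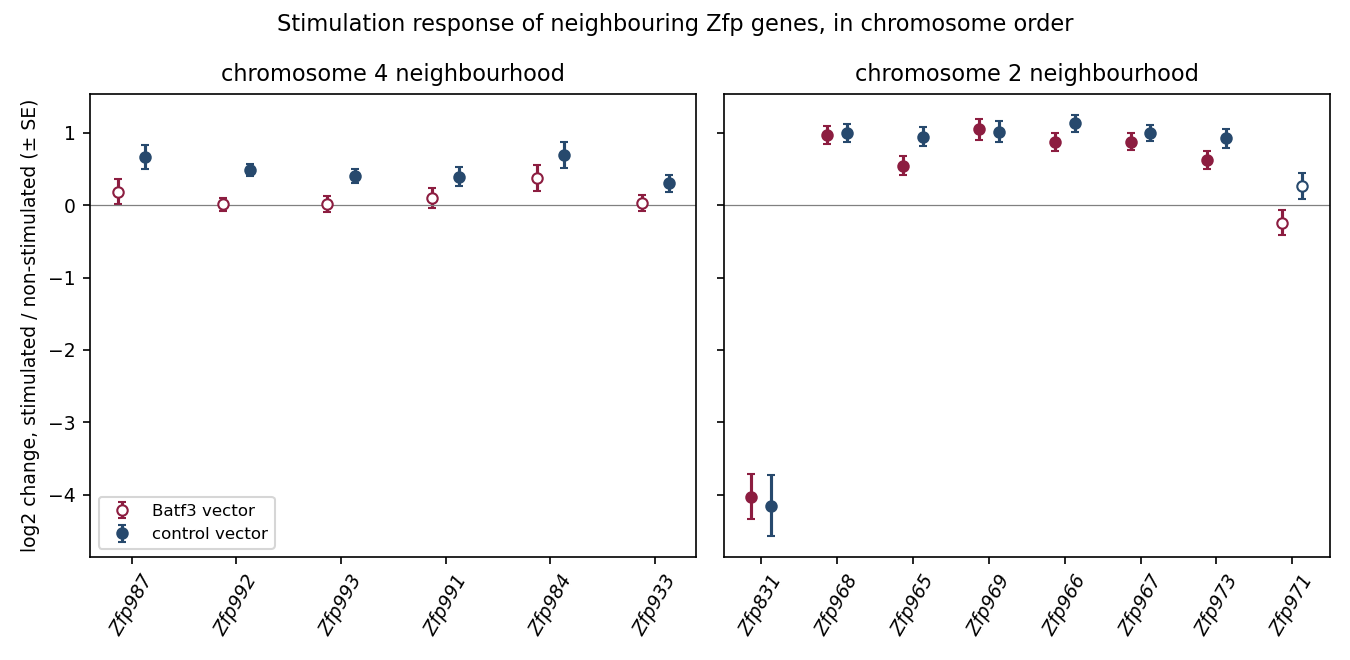
Log2 change with stimulation (± SE) of the members of the chromosome 4 and chromosome 2 neighbourhoods, in chromosome order, with the Batf3 vector left of the control vector for each gene. Filled points passed the test at an adjusted p under 0.05 and open points did not. On chromosome 4 the 6 control points are filled and the 6 Batf3 points open, and on chromosome 2 the copies other than Zfp971 lie between 0.55 and 1.13 while Zfp831 lies near -4.

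Of the 14 neighbourhoods, 9 held more falls than rises with either vector, 4 held more rises with Batf3 and 5 with the control vector, while 41.4% and 40.7% of all genes tested fell and 41.2% and 39.6% rose with Batf3 and with the control vector. On chromosome 17 between 32765496 and 33631779, 6 of 7 members fell with stimulation with either vector (medians -0.91 with Batf3 and -0.83 with the control vector). Of these Zfp101, a KRAB gene, changed by -1.50 ± 0.14 and Zfp414, which has no KRAB domain and overlaps Gm20507 on the same strand over 30.4% of its exons, by -1.51 ± 0.12 with the control vector, and the other member, Zfp81, rose with Batf3 (0.44 ± 0.10) and did not pass with the control vector (0.10 ± 0.10). The larger group on the same chromosome between 21008903 and 23599487 held 17 KRAB members, of which 2 rose and 11 fell with Batf3 and 3 rose and 8 fell with the control vector. It includes Zfp945 (-2.02 ± 0.13 with the control vector), Zfp760 and Zfp942. On chromosome 9 between 19622102 and 20605409, 3 of 6 KRAB members rose with either vector and the other 3 did not pass the test. On chromosome 7, of 11 members between 29768552 and 30169750, 6 rose and 3 fell with Batf3, and 6 rose and 2 fell with the control vector, and of 9 members between 127233061 and 127885996, 4 rose and 2 fell with Batf3, and 6 rose and 2 fell with the control vector. The chromosome 9 genes that rose were Zfp266, Zfp560 (0.79 ± 0.12 with the control vector) and Zfp426 (0.35 ± 0.07). In the first of the chromosome 7 groups the neighbours Zfp566 and Zfp260, whose annotated ends are a few kilobases apart, moved in opposite directions with stimulation.

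Members with a known role moved in both directions. Of 21 such members, 9 rose and 6 fell with stimulation with Batf3, 42.9% and 28.6%, where 41.2% and 41.4% of all genes tested did. In control-vector cells 13 rose and 6 fell, 61.9% and 28.6%, where 39.6% and 40.7% of all genes tested did. Zfp622, a factor of the 60S ribosomal subunit known from its yeast counterpart Rei1, was at 95.0, 98.5 and 96.4 CPM in control stimulated and 55.9, 53.9 and 57.0 CPM in control non-stimulated libraries (0.80 ± 0.05, log2, SE). Zfp598 was at 138, 147 and 153 CPM in control stimulated and 81.7, 85.9 and 80.6 CPM in control non-stimulated libraries (0.82 ± 0.05). Zfp593, another ribosome factor, reached 5 CPM in no group on library size and rose by 1.96 ± 0.23 with Batf3 and 1.33 ± 0.22 with the control vector, with a gene on the other strand over 77.9% of its exons. These 3 genes of ribosome assembly and surveillance rose with both vectors.

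Zfp217 was at 23.3, 25.1 and 25.9 CPM in control stimulated and 77.8, 74.9 and 77.7 CPM in control non-stimulated libraries (-1.63 ± 0.06). Zfp318, needed for IgD expression in B cells, changed by -0.96 ± 0.10 and Zfp961, a KRAB gene, by -0.58 ± 0.09 with the control vector. Zfp148, a transcription factor also called ZBP-89, changed by -0.22 ± 0.09. Zfp143, an activator of small nuclear RNA genes, rose by 0.43 ± 0.07 with Batf3 and 0.21 ± 0.08 with the control vector. Zfp91, a ubiquitin ligase of the non-canonical NF-kB pathway, rose by 0.19 ± 0.05 with Batf3 and 0.34 ± 0.05 with the control vector, and the sign of the change with Batf3 flipped without TMM scaling. Zfp326, a subunit of the DBIRD complex of splicing and elongation, did not pass with Batf3 (-0.17 ± 0.09) and rose with stimulation with the control vector (0.24 ± 0.10). With single libraries left out, the changes of Zfp148, Zfp326 and Zfp143 with the control vector did not pass in 5, 3 and 1 of 12 fits, with an adjusted p of up to 0.104, 0.137 and 0.05.

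Several members moved little. Zfp281, a transcription factor of pluripotent cells, was at 46.7, 53.6 and 47.0 CPM in control stimulated and 47.2, 46.8 and 47.1 CPM in control non-stimulated libraries, and the difference did not pass the test (0.06 ± 0.06, adjusted p = 0.32). Zfp335, needed for the maturation of mouse T cells, was at 40.9 ± 1.77 CPM in control stimulated and 36.1 ± 2.12 CPM in control non-stimulated cells (0.18 ± 0.06), and an antisense gene and Pcif1 covered 28.3% of its exons. Zfp451, a SUMO ligase, and Zfp638, which works with the HUSH complex to silence unintegrated retroviral DNA, changed by 0.13 ± 0.06 and 0.12 ± 0.05. With single libraries left out, the rises of Zfp451, Zfp638 and Zfp335 with the control vector did not pass in 7, 2 and 1 of 12 fits, with an adjusted p of up to 0.187, 0.0641 and 0.0881. Without TMM scaling the changes of Zfp281, Zfp335, Zfp451, Zfp638 and Zfp207 with the control vector had the opposite sign.

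Some KRAB genes have known targets, and the members among them changed by less than 2-fold. Zfp809 binds the proline tRNA primer binding site of murine leukaemia viruses, the family from which such retroviral vectors derive. It was at 31.3, 30.4 and 28.6 CPM in Batf3 stimulated, 28.4, 29.6 and 30.2 in Batf3 non-stimulated, 27.4, 32.5 and 33.2 in control stimulated and 26.2, 27.0 and 28.0 in control non-stimulated libraries. The 3 Batf3 non-stimulated libraries lay above the 3 control non-stimulated ones, and the 2 stimulated groups overlapped. The change with stimulation was 0.03 ± 0.07 with Batf3 and 0.20 ± 0.07 with the control vector, and Batf3 against control did not pass in stimulated (adjusted p = 0.705) or non-stimulated cells (adjusted p = 0.169). The change with the control vector did not pass without control stimulated library 2 or 3 (adjusted p up to 0.0812). Zfp445, which with Zfp57 guards imprinted DNA methylation, was at 124 ± 3.51 CPM in control stimulated and 96.3 ± 2.44 CPM in control non-stimulated cells (0.36 ± 0.05), while Zfp57 stayed at 1.22 ± 0.202 CPM in control stimulated and 0.752 ± 0.472 CPM in control non-stimulated cells, below the limit. Zfp568, a repressor of placental Igf2, rose by 0.52 ± 0.07 with Batf3 and 0.44 ± 0.07 with the control vector. Zfp932, a repressor of endogenous retroviral elements, shared 55.5% of its 50-base words with other genes and was lower with Batf3 in stimulated cells (-0.32 ± 0.09), which did not pass without library 3 of that group (adjusted p = 0.109). Zfp429 and Zfp459, both KRAB genes, did not pass in any comparison, Zfp459 and Zfp57 being no members, and Zfp708 had 0 counts in all libraries, its exons lying wholly within those of another annotated gene.

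Promoters of the members held more CG pairs than those of all genes. The 197 members with a RefSeq promoter of 300 bases (250 before to 50 after the start, GRCm38.p6) had a median of 15 CG pairs, against 7 over 27025 promoters. For members the start nearest the annotated 5′ end was taken, and for all genes the first listed start, whether or not they were expressed here. Other expressed genes were not compared, so the differences in CG and motifs cannot be read as particular to the family. The letters TGANTCA, the core motif of AP-1 factors, to which BATF3 belongs, occurred on either strand in 4.06% of the member promoters and in 7.93% of all promoters. TGACGTCA, the motif of CREB-like factors, occurred in 3.55% and 1.88%, and CACGTG, an E-box, in 8.12% and 7.24%. Of the 8 members with TGANTCA, 3 (Zfp871, Zfp652 and Zfp329) were higher and 1 (Zfp239) was lower with Batf3 in non-stimulated cells, and the other 4 did not pass the test. There 11.3% and 10.5% of the members and 16.3% and 23% of all genes tested were higher and lower. The call of Zfp239 was lost in 9 of 12 fits that left out 1 library (adjusted p up to 0.277). In stimulated cells 1 (Zfp239) was lower and the other 7 did not pass, where 14.8% and 14.6% of all genes tested were higher and lower. Zfp239 met the limit for members in control stimulated cells alone. A link between the motif and the change was not tested. These letters were searched in promoters alone and mark no binding.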

How the data were processed

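RNA-seq of sorted OT-I CD8 T cells was deposited as 1 table of raw counts per gene, made by the authors with STAR 2.7 and featureCounts on GRCm38, per the submitters' processing notes. Not given in the sources used here are the annotation version, whether strand was used, and how multi-mapping reads were counted. Per the labels' protocols, libraries came from 100 ng of RNA by poly-A selection and a stranded kit with 15 PCR cycles. The deposited counts were tested with edgeR 4.0.16 (R 4.3.3): genes were kept by filterByExpr, scaled by TMM and fitted with 4 group means over all 12 libraries (quasi-likelihood, robust, 8 residual degrees of freedom), with Benjamini-Hochberg adjustment over 15702 genes and calls at an adjusted p under 0.05. The procedure was run on simulated data in which few genes changed, in Batf3 non-stimulated cells alone. That simulation does not cover the stimulation comparisons, in which most genes were called. Total counts of 14211564 to 14468231 set the precision, and 3 counts stood for 0.191 to 0.229 CPM per library, which covers counting error only. Alternatives were other scaling, filters, DESeq2 1.42.0, a replicate block, single libraries left out, other limits for members and fits on 2 groups.

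Named genes are, per pairwise comparison, the 6 largest rises and falls among called members with 5 CPM or more in the higher group and groups that do not overlap, the 4 largest interactions each way, the 5 highest levels, the genes beside the limit and the listed genes of known role. Neighbourhood genes and a few others were named after their values were seen. The members, lists and tests were chosen with earlier results of these data known. KRAB and SCAN matches came from profile searches (pyhmmer 0.12.3, E under 0.001) of the longest coding sequence per gene, and C2H2 fingers from a pattern of paired Cys and His. Of 238 members, 197 matched a RefSeq promoter. Zfp91 is listed under 2 identifiers, of which 1 had 0 counts.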

Additional observations from a re-analysis of the deposited data

Results flagged for a closer look

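The effect of Batf3 differed between stimulated and non-stimulated cells, by the interaction test, for 14 of the named members (edgeR's quasi-likelihood test, adjusted over 15702 genes). The difference (log2, stimulated minus non-stimulated) was negative for Zfp771 (-0.61, adjusted p = 0.0173), Zfp942 (-0.6, adjusted p = 0.00104), Zfp652 (-0.54, adjusted p = 0.000338), Zfp992 (-0.48, adjusted p = 0.00307), Zfp326 (-0.4, adjusted p = 0.0229) and Zfp993 (-0.39, adjusted p = 0.046). It was positive for Zfp609 (0.28, adjusted p = 0.0263), Zfp36 (0.31, adjusted p = 7.14e-05), Zfp367 (0.37, adjusted p = 0.0224), Zfp597 (0.38, adjusted p = 0.0252), Zfp266 (0.39, adjusted p = 0.00038), Zfp263 (0.41, adjusted p = 3.55e-06), Zfp296 (0.61, adjusted p = 0.00174) and Zfp608 (0.67, adjusted p = 0.000681). Zfp326 was at 17.0, 12.9 and 15.9 CPM in Batf3 stimulated, 16.8, 17.9 and 16.7 in Batf3 non-stimulated, 17.5, 15.8 and 16.4 in control stimulated and 13.8, 12.9 and 15.6 in control non-stimulated libraries. Zfp367 was at 15.0 ± 0.672 CPM in Batf3 stimulated, 28.4 ± 2.27 in Batf3 non-stimulated, 11.1 ± 0.929 in control stimulated and 27.2 ± 1.63 in control non-stimulated cells (SD, n = 3 each). With single libraries left out, 6 of these did not pass in some of 12 fits: Zfp609 in 8, Zfp597 in 7, Zfp993 in 6, Zfp367 in 5, Zfp326 in 3 and Zfp771 in 2, with an adjusted p of up to 0.136, 0.152, 0.171, 0.155, 0.0832 and 0.0919. The value of Zfp993 did not pass without library 3 of the Batf3 stimulated group (-0.29, adjusted p = 0.171).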

How the results depend on the processing

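With library sizes alone in place of TMM, members higher and lower with Batf3 numbered 57 and 7 in non-stimulated and 38 and 16 in stimulated cells, and the medians of all genes tested moved by construction. The sign then turned, for stimulation with the Batf3 vector, for Zfp281 (-0.131), Zfp335 (-0.142), Zfp992 (-0.204), Zfp638 (-0.06), Zfp809 (-0.181), Zfp207 (-0.054) and Zfp91 (-0.023), and with the control vector for Zfp451 (-0.058), Zfp281 (-0.125), Zfp335 (-0.005), Zfp638 (-0.063) and Zfp207 (-0.004). The cause of the other changes was not tested. In non-stimulated cells members higher with Batf3 numbered 42 with the 6 libraries of both groups alone and 16 at an adjusted p under 0.01, and members lower 15 with no filter, 12 with DESeq2, 16 with the 6 libraries and 11 at 0.01. In stimulated cells members higher with Batf3 numbered 13 with no filter, 13 with DESeq2 and 13 at 0.01, and members lower 13 at 0.01. For the interaction, members higher numbered 5 with no filter, 7 with DESeq2 and 7 at 0.01, and members lower 21, 7 and 4 in the same order. With 5 CPM asked for in each group, falls with stimulation numbered 70 with the Batf3 and 58 with the control vector, against 77 and 83 rises, and the medians turned to 0.068 and 0.125.

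Leaving out single libraries gave 20 to 38 members higher and 13 to 26 lower with Batf3 in non-stimulated cells, 15 to 20 and 16 to 27 in stimulated cells, 77 to 84 rises and 111 to 119 falls with stimulation with the Batf3 vector, 85 to 94 and 92 to 102 with the control vector, and 6 to 14 and 8 to 25 for the interaction. Members lower with Batf3 in non-stimulated cells numbered 14 without any 1 control stimulated library, 13 without Batf3 non-stimulated library 1 and 15 without Batf3 stimulated library 1 or 2. Interactions higher numbered 6, 7 and 6 without control stimulated library 1, 2 or 3, and lower 22 without control stimulated library 1, 8 without Batf3 non-stimulated library 2 and 25 without Batf3 stimulated library 1. The calls over all genes tested moved in these fits as well, as given above. Same-numbered libraries did not deviate together (correlations -0.04 to 0.02). Whether they share a mouse or culture is not stated in the labels and cannot be told from these correlations. A fit with the replicate number as a block gave 27 and 22, 19 and 24, 82 and 116, 91 and 99, and 12 and 12 calls, in the order in which the comparisons are named above. Without the 42 members that share 10% or more of their 50-base words, a choice made after seeing the data, Batf3 calls were 26 and 22 in non-stimulated and 19 and 18 in stimulated cells. Depth limits genes near 5 CPM most, where 3 counts stand for 0.191 to 0.229 CPM.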
